A study of Mus musculus with 9 samples.

Results

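Efferocytosis, the uptake of dying cells by phagocytes, was followed through 10 genes for its receptors, bridging molecules and engulfment adaptors in CD11b+ cells of the injured mouse liver. The genes are Mertk, Axl, Tyro3, Gas6, Pros1, Timd4, Mfge8, Stab1, Elmo1 and Dock1, chosen by symbol for their roles, with earlier results of these data known. All 10 were found by gene ID among the 45777 genes of the deposited tables, and 9 of them passed the filter for testing, Tyro3 being the exception.

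A dying cell exposes phosphatidylserine on its surface, and phagocytes read it either directly or through soluble bridges. Mertk, Axl and Tyro3, the TAM receptor tyrosine kinases, do not bind the lipid themselves. They are engaged by Gas6 and protein S (Pros1), whose vitamin K-dependent domains bind phosphatidylserine. Mfge8 bridges the lipid to integrins of the alpha v family, while Timd4 and the scavenger receptor Stab1 bind it directly. Elmo1 and Dock1 form an exchange factor for Rac that drives closure of the phagocytic cup. In the liver, Timd4 marks resident Kupffer cells, and Stab1 is found on sinusoidal endothelium and on macrophages.

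All mice received acetaminophen (APAP) by intraperitoneal injection to induce acute liver failure, and livers were collected 48 hours later. The 9 samples of CD11b+ liver cells, labelled as induced with APAP, form 3 groups of 3. The PBS group was treated with PBS, the HEK-EV group with extracellular vesicles labelled HEK cell derived SIRP-EV, and the MSC-EV group with vesicles labelled MSC derived SIRP-EV. Vesicles were given intravenously 8 hours after APAP. HEK cells are a human embryonic kidney line, and neither MSC nor SIRP is spelled out in the labels. Strain, sex and age are not given in the sources used here, and no group without APAP and no group given vesicles without SIRP was analysed here. The labels do not say whether replicates are separate animals, so p-values measure the spread between these samples, which may be technical.

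Levels are in TPM, a measure of transcript abundance scaled for gene length and library, so that levels of different genes can be set side by side. Since read counts are not in the tables, sequencing depth is not known. The ratio of coverage to FPKM, which follows depth, ran from 5.28 to 6.32 in PBS, 6.25 to 6.47 in HEK-EV and 6.58 to 6.84 in MSC-EV samples. Every MSC-EV value lay above every value of the other groups. Depth and the MSC-EV treatment can thus not be told apart, which limits each fit below with depth as a covariate. The 7 myeloid markers checked against the label were present in every sample, from 196 TPM for Itgam, the gene of CD11b, upwards. Itgam was at 289 to 377 TPM in PBS, 339 to 434 TPM in HEK-EV and 196 to 255 TPM in MSC-EV samples, and MSC-EV differed from PBS by -0.53 (limma adjusted p = 0.0553) and from HEK-EV by -0.70 (adjusted p = 0.0257). Pancreatic acinar transcripts stood out in 4 samples, HEK-EV replicates 1 and 2 and MSC-EV replicates 1 and 3, where 14 acinar genes had medians of 1.63 to 194 TPM against 0 TPM in the other 5 samples.

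Transcripts of other cell types were also measured, since CD11b+ isolates can carry them. In MSC-EV against PBS, 5 of 9 Ly6C-high monocyte markers were called lower, 2 of 13 sinusoidal endothelial markers lower, 3 of 10 hepatocyte markers higher and 5 of 8 biliary markers higher, where 1.86% of all genes tested were called higher and 3.25% lower. Of the other lists, 1 of 7 myeloid markers was called lower, and 1 of 10 neutrophil and 1 of 4 lymphocyte markers higher. None of 8 Kupffer cell, 7 dendritic cell, 6 stellate cell or 14 acinar markers was called in the limma fit, where 1, 2, 1 and 0 of them had an unadjusted p under 0.05, as 23.0% of all genes tested had. Of the lists with calls, 8 of 9 monocyte, 13 of 13 endothelial, 9 of 10 hepatocyte and 7 of 8 biliary markers were under it. So were 4 of 7 myeloid, 3 of 10 neutrophil and 3 of 4 lymphocyte markers. In MSC-EV against HEK-EV, 5 of 10 hepatocyte markers were called higher and 1 lower, 5 of 8 biliary markers higher, 4 of 9 monocyte markers lower and 1 of 13 endothelial markers lower. Of 7 myeloid markers 1 was called higher and 2 lower, of 10 neutrophil markers 1 higher and 1 lower, and of 4 lymphocyte markers 1 higher. Of all genes tested, 1.51% were called higher and 4.40% lower there.

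The sequences upstream of the genes whose level changed are shown, with that of Timd4, the other direct receptor. They are the 250 bases before the start site in the RefSeq promoter table, 5′ to 3′ on the gene's strand, on GRCm38.p6, and all 10 genes had an entry. For Stab1 and Timd4 this start site lay 10 and 13 bases inside the gene span of the deposited tables, so their windows overlap that span. For Axl and Tyro3, not shown, it lay 191 and 1774 bases from the gene start of those tables. Capitals mark matches, on either strand, to the GC box GGGCGG bound by Sp and Klf proteins or to the Maf half-site TGCTGA, named for the Maf factors of macrophages. The windows are chr8:13494536-13494785 (minus strand) for Gas6 and chr16:62854057-62854306 (plus strand) for Pros1. Those of the receptors are chr14:31168642-31168891 (minus strand) for Stab1 and chr11:46810549-46810798 (plus strand) for Timd4.
Gas6: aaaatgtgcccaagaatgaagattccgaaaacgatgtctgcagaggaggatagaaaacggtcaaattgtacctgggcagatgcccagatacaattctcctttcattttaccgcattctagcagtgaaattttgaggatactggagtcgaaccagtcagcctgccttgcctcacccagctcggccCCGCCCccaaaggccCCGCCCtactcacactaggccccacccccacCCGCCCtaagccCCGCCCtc
Pros1: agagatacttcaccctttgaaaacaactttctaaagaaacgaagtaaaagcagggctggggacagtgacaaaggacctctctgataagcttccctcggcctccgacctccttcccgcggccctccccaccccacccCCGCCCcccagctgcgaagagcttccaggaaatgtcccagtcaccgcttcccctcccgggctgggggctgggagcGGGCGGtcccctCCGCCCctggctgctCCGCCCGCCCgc
Stab1: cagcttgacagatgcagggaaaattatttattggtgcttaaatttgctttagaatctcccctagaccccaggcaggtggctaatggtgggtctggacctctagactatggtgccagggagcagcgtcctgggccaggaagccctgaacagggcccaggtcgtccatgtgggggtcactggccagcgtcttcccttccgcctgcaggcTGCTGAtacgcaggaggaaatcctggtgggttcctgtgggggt
Timd4: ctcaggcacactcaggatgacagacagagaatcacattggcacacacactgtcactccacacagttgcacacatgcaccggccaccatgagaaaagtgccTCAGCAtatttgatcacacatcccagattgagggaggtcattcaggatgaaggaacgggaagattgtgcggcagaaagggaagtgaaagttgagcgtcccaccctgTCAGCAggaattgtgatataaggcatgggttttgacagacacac

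Gas6 held 4 GC box matches in this window and Pros1 held 5, a pair of which overlap. The GC box was not particular to the soluble bridges. It had a match in 8 of the 10 genes, the receptors Mertk, Axl and Tyro3 and the adaptors Elmo1 and Dock1 among them. Stab1 and Timd4 were the 2 of 10 genes with no GC box match, and the same 2 were the only ones of the 10 with a Maf half-site match, 1 in Stab1 and 2 in Timd4. Over all 32851 RefSeq windows of this length, 32.7% held a GC box match and 16.1% a Maf half-site match. The E-box CACGTG (6.0% of windows) and the PU.1-type motif GAGGAAGT (2.4%) had no match in any of the 10, and the TATA box TATAAA (12.4%) had a match in Elmo1 alone. These are letter matches and not binding sites, and the motifs were chosen with earlier results of these data known.

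Axl was the most abundant of the genes, at a mean of 464 TPM over the 9 samples, followed by Stab1 (172), Mertk (92.6), Timd4 (75.0) and Gas6 (68.1). Elmo1 (62.2), Pros1 (36.3), Dock1 (19.6) and Mfge8 (13.5) were lower, and Tyro3 was at 0.12 TPM. In the PBS samples, Stab1, at 104 to 177 TPM, lay just above Mertk, at 67.5 to 103 TPM, and the range of Mertk overlapped those of Timd4 and Elmo1. In the same samples Gas6, at 34.1 to 68.3 TPM, overlapped both Elmo1, at 60.4 to 71.1 TPM, and Pros1, at 35.4 to 41.7 TPM. In the MSC-EV samples Gas6 stood at 94.4 to 113 TPM, overlapping Mertk (88.3 to 112 TPM) and above every value of Elmo1 and Timd4 there. The plot of all levels shows these orders.

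**Figure D1:**
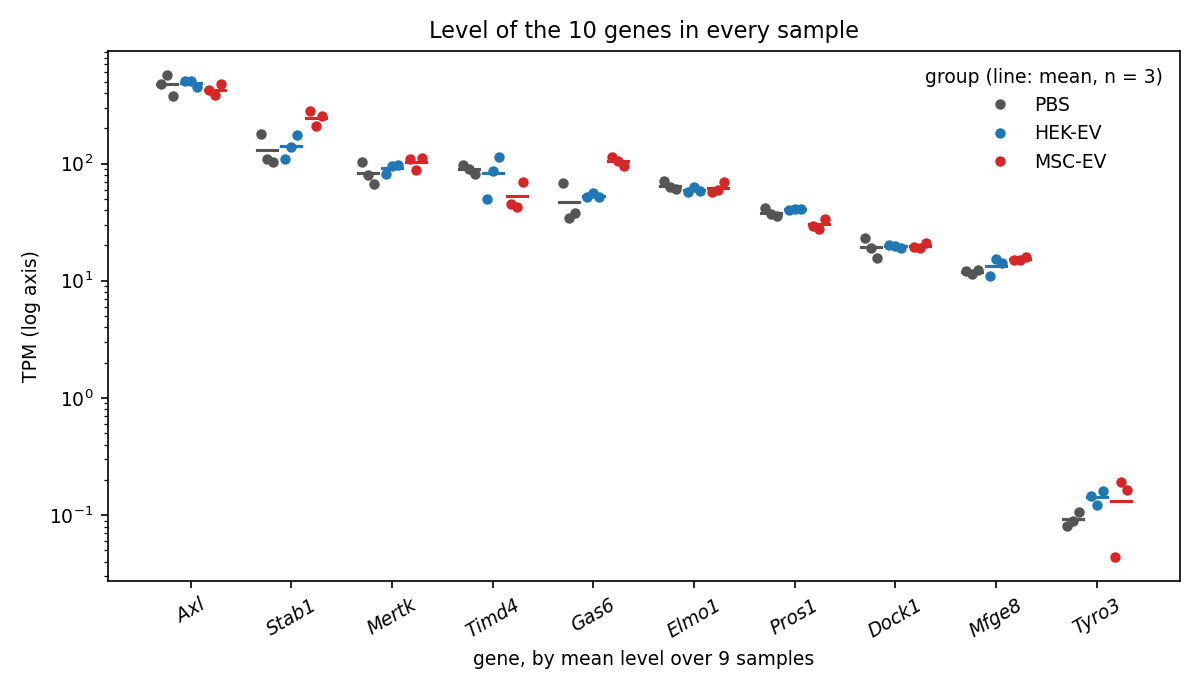
TPM (log axis) of the 10 genes in each of the 9 samples, ordered by mean level, with points for samples and lines for group means (n = 3). Axl lies highest at a mean of 464 TPM and Tyro3 lowest at 0.12 TPM, and the MSC-EV samples of Gas6 and Stab1 lie above all others.

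MSC-EV against PBS sets CD11b+ isolates of injured livers treated with MSC-derived vesicles beside those treated with PBS. Markers of other cell types also differed between these isolates, as given above. Gas6 and Stab1 rose in the MSC-EV group, by 2.24-fold and 1.90-fold in mean TPM. The other 7 genes tested did not pass, among them Mertk, Axl, Elmo1 and Dock1. The count of 2 of 9 genes called higher and 0 called lower stands beside 1.86% of all 13820 genes tested called higher and 3.25% called lower (5.11% in all). At an unadjusted p under 0.05 there were 5 of the 9, where 23.0% of all genes were under it. The median difference of the 9 genes was 0.05 on the log2 scale, against 0.01 for all genes tested. Here and below, a gene is called when its adjusted p from limma (Benjamini-Hochberg over all genes tested) is under 0.05, and a difference is one of log2(TPM + 1).

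Gas6 (gene ID 14456, chromosome 8, 13465374 to 13494535, minus strand) encodes the ligand of all TAM receptors and the one ligand of Axl. Its level was 68.3, 34.1 and 37.7 TPM in PBS replicates 1 to 3, 51.6, 56.4 and 51.4 TPM in the HEK-EV samples and 113, 106 and 94.4 TPM in the MSC-EV samples. All MSC-EV samples lay above all others, and PBS replicate 1 lay apart from the other PBS samples. Gas6 was higher in MSC-EV than in PBS by 1.21 (SE 0.213, limma adjusted p = 0.0238, n = 3 per group). In bulk samples, a larger share of cells that express a gene and more RNA per cell cannot be told apart. The call was lost without PBS replicate 2 (1.02, adjusted p = 0.102), PBS replicate 3 (1.09, adjusted p = 0.0885), MSC-EV replicate 1 (1.15, adjusted p = 0.111) or MSC-EV replicate 2 (1.20, adjusted p = 0.0757). It was also lost when low genes were kept (adjusted p = 0.0538), with the 6 samples alone (0.0574) with acinar transcripts as a term (1.20, adjusted p = 0.116), without the 2 samples richest in them (1.28, adjusted p = 0.0667) or all 4 with them (1.24, adjusted p = 0.260), and depth as a covariate raised the difference to 1.86.

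Stellate cells are a known source of Gas6, so their markers are given beside it. Of the 6 stellate markers tested, 5 had a positive difference in MSC-EV against PBS, as Gas6 did (median 0.53), and none was called by limma. Col1a1, a fibrillar collagen gene, was at 2.75, 0.491 and 0.775 TPM in PBS, 0.870, 1.25 and 1.54 TPM in HEK-EV and 4.83, 1.36 and 2.65 TPM in MSC-EV samples. In mean TPM, Dcn, the first marker listed, was 1.32-fold, Col1a1 2.2-fold and Col1a2 2.48-fold as high in MSC-EV as in PBS. The 9 markers other than Ecm1 summed to 7.77 to 17.8 TPM in PBS, 9.40 to 14.6 TPM in HEK-EV and 11.1 to 29.96 TPM in MSC-EV samples, each at or under 6.43 TPM. With Ecm1, which was at 78.3 to 192 TPM and lower in MSC-EV than in PBS, the 10 markers summed to 134 to 171, 134 to 206 and 89.4 to 132 TPM. Ecm1 was set apart after its values were seen, and no marker was at 0 in all samples. The part of these cells in the Gas6 difference was not tested.

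Pros1 (gene ID 19128, chromosome 16, 62854307 to 62929346, plus strand), the other TAM ligand and a plasma anticoagulant, was at 41.7, 36.9 and 35.4 TPM in PBS, 39.9, 41.3 and 40.9 TPM in HEK-EV and 29.5, 27.5 and 33.5 TPM in MSC-EV samples. All MSC-EV samples lay below all others, by a narrower margin than for Gas6. The difference from PBS was -0.32 (SE 0.0851, limma adjusted p = 0.0597), just short of the threshold. It passed with median-of-ratios scaling (-0.34, adjusted p = 0.0316, with 4.44% of all genes called), quantile normalization (-0.31, adjusted p = 0.0375, with 5.07% called) and array quality weights (-0.31, adjusted p = 0.00542, with 30.1% called). It also passed when MSC-EV replicate 3 was left out (-0.40, adjusted p = 0.0418), and shrank to -0.14 with depth as a covariate (adjusted p = 0.444). Hepatocytes make plasma protein S, and 9 of 10 hepatocyte markers had a positive difference in the same comparison (median 0.72). The summed levels of these 10 overlapped, at 756 to 1028 TPM in PBS and 925 to 1031 TPM in MSC-EV samples. All 9 Ly6C-high monocyte markers had a negative difference, with summed levels of 6405 to 12730 TPM in PBS and 3935 to 4870 TPM in MSC-EV samples. The part of these cells in the Pros1 difference was not tested.

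The share of Gas6 in the summed level of both ligands is given as a description. Gas6 made up 62.1%, 48.0% and 51.5% of the summed TPM of both ligands in PBS samples, and 56.4%, 57.7% and 55.7% in HEK-EV samples. It made up 79.3%, 79.4% and 73.8% in MSC-EV samples, above every other sample, while PBS and HEK-EV overlapped. The means were 53.9% ± 7.34 (SD, n = 3), 56.6% ± 1.03 and 77.5% ± 3.21. No test was made of this share.

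**Figure D2:**
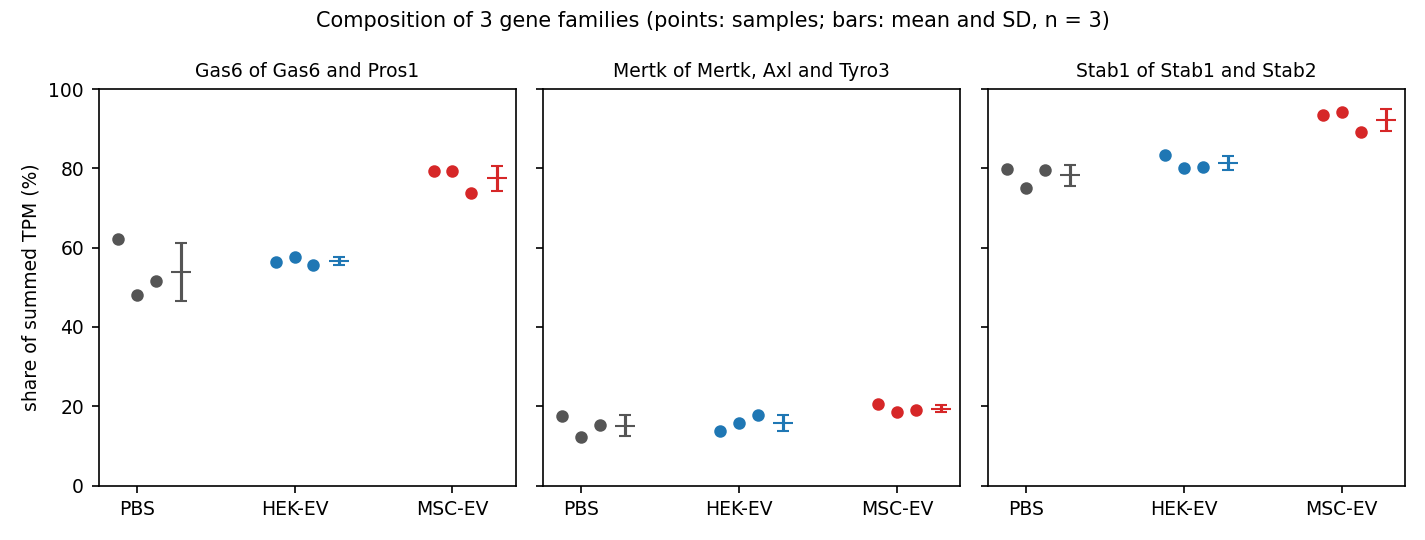
Share of summed TPM (%) taken by Gas6 among the TAM ligands, Mertk among the TAM receptors and Stab1 among the stabilins, with points for samples and bars for mean and SD (n = 3). The MSC-EV samples lie above all others in each panel, at means of 77.5%, 19.4% and 92.2%.

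Among the TAM receptors, Mertk (gene ID 17289, chromosome 2, 128698915 to 128803162), the receptor most tied to uptake by macrophages, was at 103, 80.3 and 67.5 TPM in PBS, 81.3, 94.8 and 97.0 TPM in HEK-EV and 109, 88.3 and 112 TPM in MSC-EV samples. The groups overlapped, and MSC-EV differed from PBS by 0.31 (SE 0.150, limma adjusted p = 0.248, 95% interval -0.02 to 0.65). The difference passed without PBS replicate 1 (0.47, adjusted p = 0.0425), with depth as a covariate (0.75, adjusted p = 0.0269) and with array quality weights (0.38, adjusted p = 0.0197). Of all genes tested, 13.7%, 9.69% and 30.1% were called in these fits, against 5.11% in the main fit. The Mertk difference shrank to 0.17 without PBS replicate 3 (adjusted p = 0.567). It was 0.10 without all 4 samples with acinar transcripts, which left a lone MSC-EV sample.

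Axl (gene ID 26362, chromosome 7, 25756500 to 25788924), a TAM receptor induced in inflamed tissue, was at 481, 571 and 374 TPM in PBS, 505, 508 and 450.3 TPM in HEK-EV and 424, 385 and 474 TPM in MSC-EV samples. Every MSC-EV value lay within the PBS range, and the difference was -0.14 (SE 0.141, limma adjusted p = 0.624, interval -0.45 to 0.18). It was -0.30 without PBS replicate 3 and turned to 0.01 without PBS replicate 2. Tyro3 (gene ID 22174, chromosome 2, 119797740 to 119818104), the TAM receptor best known from the nervous system, was at 0.0441 to 0.192 TPM in the 9 samples and was not tested. Mertk thus made up 15.1% ± 2.64, 15.8% ± 1.93 and 19.4% ± 0.964 of the TAM receptor TPM in PBS, HEK-EV and MSC-EV (SD, n = 3 each), and Axl nearly all the rest.

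Stab1 (gene ID 192187, chromosome 14, 31139017 to 31168651, minus strand), a scavenger receptor that binds phosphatidylserine, was at 177, 109 and 104 TPM in PBS, 109, 138 and 176 TPM in HEK-EV and 279, 208 and 252 TPM in MSC-EV samples. All MSC-EV samples lay above all others, while PBS and HEK-EV covered nearly the same range. It was higher in MSC-EV than in PBS by 0.95 (SE 0.225, limma adjusted p = 0.0457). The call lay near the threshold and was lost without PBS replicate 2 (0.85, adjusted p = 0.179), PBS replicate 3 (0.81, adjusted p = 0.143), HEK-EV replicate 2 (0.95, adjusted p = 0.0734) or any MSC-EV replicate (0.86 to 1.07, adjusted p = 0.0864 to 0.164). The replicate block also ended the call. It was lost when low genes were kept (adjusted p = 0.104), with the 6 samples alone (0.0646), with acinar transcripts as a term (1.01, adjusted p = 0.149), without the 2 samples richest in them (0.93, adjusted p = 0.132) or all 4 with them (0.72, adjusted p = 0.402), and depth as a covariate raised the difference to 1.57. Its gene shares 108 bases with Nt5dc2 on the opposite strand, which reached 71.6 TPM, and 791 bases with Gm52148, and the use of strand in counting is not given in the sources used here.

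Sinusoidal endothelium, a major site of Stab1, is measured by Stab2, its close relative, and 12 other markers. Stab2 was at 44.6, 36.1 and 26.5 TPM in PBS, 21.8, 34.3 and 43.1 TPM in HEK-EV and 19.9, 12.8 and 30.8 TPM in MSC-EV samples, with a difference from PBS of -0.78 (SE 0.326, limma adjusted p = 0.189). All 13 endothelial markers had negative differences in MSC-EV against PBS. Of these, 2 were called, Flt1 and Fcgr2b, where 3.25% of all genes tested were called lower, and Flt1 was thus the one called when Fcgr2b is set aside. All 13 had an unadjusted limma p under 0.05, where 23.0% of all genes tested had. For 11 of the 13, every MSC-EV sample lay below every PBS sample, as it did for 14.9% of all genes tested. The 13 markers had a summed level of 808 to 906 TPM in PBS, 686 to 969.9 TPM in HEK-EV and 439 to 632 TPM in MSC-EV samples. Fcgr2b, which myeloid cells also express, made up 248 to 407 TPM of these sums and was set apart after its values were seen. The other 12 markers summed to 539, 498 and 431 TPM in PBS, 288, 462 and 618 TPM in HEK-EV and 273, 191 and 355 TPM in MSC-EV samples. HEK-EV replicate 1, with 109 TPM of Stab1, lay below MSC-EV replicate 3, with 252 TPM, in this sum of 12. In the sum of all 13 markers the order was reversed, at 686 and 632 TPM. The part of endothelium in the Stab1 difference was not tested. Stab1 made up 78.2% ± 2.72 of the summed TPM of both stabilins in PBS, 81.2% ± 1.78 in HEK-EV and 92.2% ± 2.72 in MSC-EV (SD, n = 3 each).

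Timd4 (gene ID 276891, chromosome 11, 46810786 to 46844333, plus strand), the direct phosphatidylserine receptor of resident macrophages, was at 96.5, 90.1 and 81.3 TPM in PBS, 50.1, 85.9 and 113 TPM in HEK-EV and 45.3, 42.2 and 69.9 TPM in MSC-EV samples. The MSC-EV samples lay below all PBS samples, but HEK-EV replicate 1 lay among them. The difference from PBS was -0.79 (SE 0.274, limma adjusted p = 0.123, interval -1.41 to -0.17). It passed with array quality weights (-0.87, adjusted p = 0.0116), where 30.1% of all genes tested were called. The difference was -1.06 when all samples with acinar transcripts were left out, which left a lone MSC-EV sample.

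Kupffer cell markers are given beside Timd4, since it is itself a gene of these cells. All 8 had a negative difference in MSC-EV against PBS (median -0.50), with none called by limma and 1 at an unadjusted p under 0.05, below the 23.0% of all genes. The 8 markers, Clec4f, Vsig4 and Cd5l among them, summed to 2989 to 3649 TPM in PBS, 2114 to 4219 TPM in HEK-EV and 1714 to 2987 TPM in MSC-EV samples, with none at 0. The 3 samples lowest in Timd4, MSC-EV replicates 1 and 2 and HEK-EV replicate 1, were also the 3 lowest in this sum, and HEK-EV replicate 3 was highest in both. As a percent of the sum, Timd4 was at 2.65, 2.67 and 2.72 in PBS, 2.37, 2.49 and 2.68 in HEK-EV and 2.08, 2.46 and 2.34 in MSC-EV samples. Every PBS value of this percentage lay above every MSC-EV value, and HEK-EV overlapped both. The part of Kupffer cell number in the Timd4 difference was not tested.

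**Figure D3:**
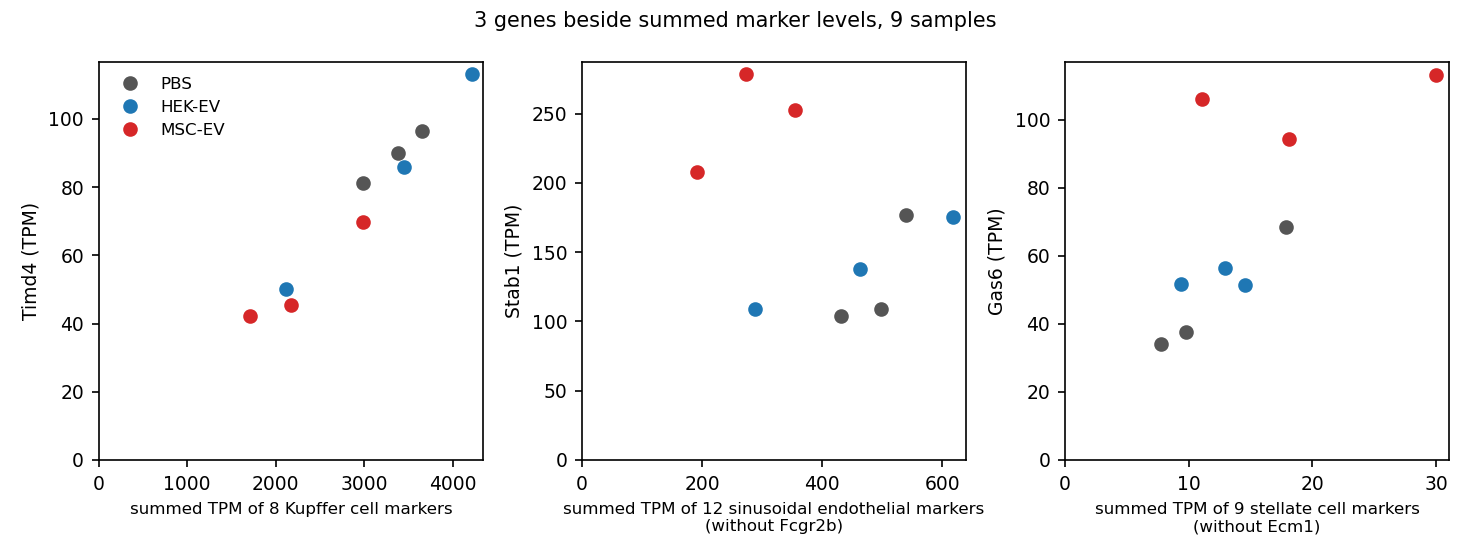
TPM of Timd4, Stab1 and Gas6 in the 9 samples (y axes) against the summed TPM of 8 Kupffer cell markers, 12 sinusoidal endothelial markers without Fcgr2b and 9 stellate cell markers without Ecm1 (x axes). The 3 samples lowest in Timd4 are lowest in the Kupffer sum. The MSC-EV samples overlap HEK-EV in this endothelial sum, though not in the sum with Fcgr2b, and overlap both groups in the stellate sum.

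Mfge8 (gene ID 17304, chromosome 7, 79133768 to 79149060), the bridge to integrins, was at 12.03, 11.4 and 12.3 TPM in PBS, 11.1, 15.3 and 14.1 TPM in HEK-EV and 14.9, 15.0 and 15.8 TPM in MSC-EV samples. The MSC-EV samples lay above all PBS samples within a narrow range, and the difference of 0.33 (SE 0.107, limma adjusted p = 0.102) did not pass. It passed without HEK-EV replicate 1, which enters through the shared spread (0.33, adjusted p = 0.0463), and with array quality weights (0.36, adjusted p = 0.0143). Of all genes tested, 4.34% and 30.1% were called in these fits. Together with Gas6 and Stab1 above PBS and Pros1 and Timd4 below it, 5 of the 9 genes had groups that did not overlap, where 26.0% of all genes tested did so (11.2% higher and 14.9% lower).

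In the main fit of MSC-EV against PBS, the engulfment adaptors gave the smallest differences. Elmo1 (gene ID 140580, chromosome 13, 20090507 to 20608353) was at 71.1, 62.8 and 60.4 TPM in PBS, 57.6, 63.5 and 58.9 TPM in HEK-EV and 56.8, 60.0 and 69.1 TPM in MSC-EV samples. Its difference in MSC-EV against PBS was -0.06 (SE 0.0879, limma adjusted p = 0.723, interval -0.26 to 0.13). Dock1 (gene ID 330662, chromosome 7, 134670687 to 135173647) was at 23.4, 19.2 and 15.5 TPM in PBS, 20.3, 19.8 and 19.1 TPM in HEK-EV and 19.4, 19.0 and 21.1 TPM in MSC-EV samples, and differed by 0.05 (SE 0.123, limma adjusted p = 0.852, interval -0.23 to 0.33). The groups overlapped for both genes. Leaving out 1 sample moved Elmo1 between -0.14 and 0.003 and Dock1 between -0.09 and 0.19, a change of sign in each. Depth as a covariate raised the Dock1 difference to 0.43 and turned that of Elmo1 to 0.08, with neither called.

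**Figure D4:**
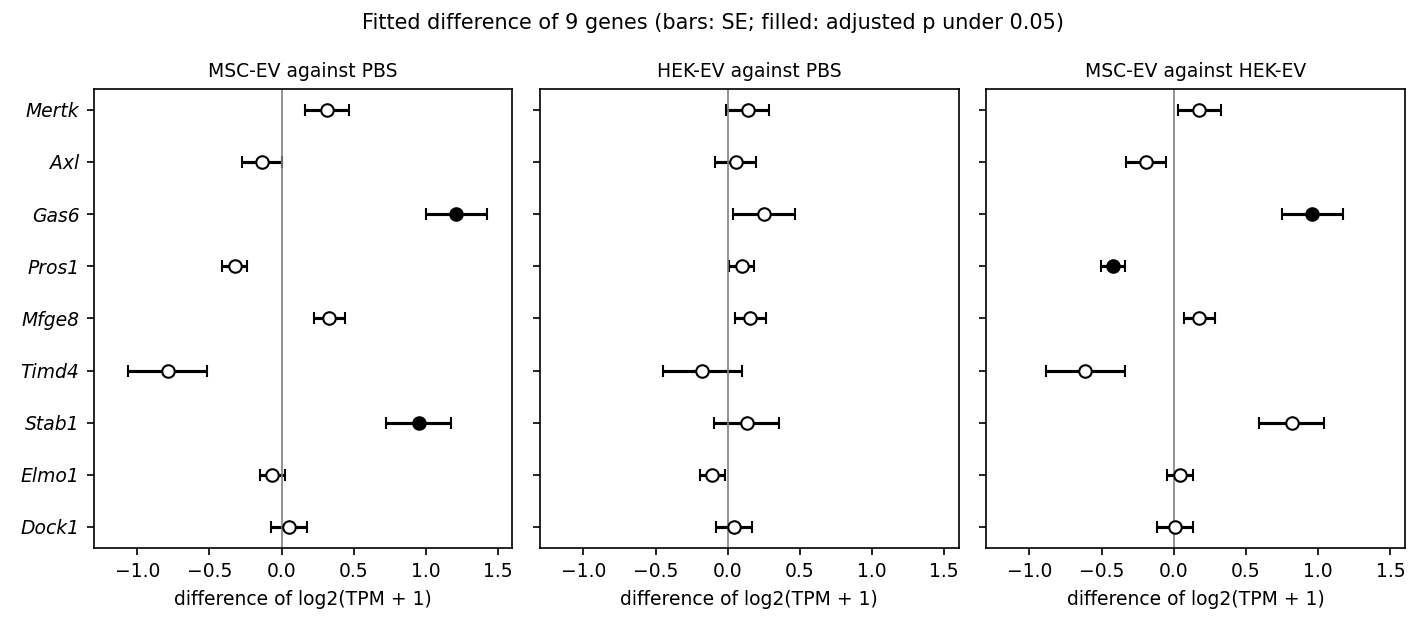
Difference of log2(TPM + 1) for the 9 genes tested in the 3 comparisons, with bars for SE and filled points for an adjusted p under 0.05. Filled points are Gas6 and Stab1 in MSC-EV against PBS and Gas6 and Pros1 in MSC-EV against HEK-EV, with none in HEK-EV against PBS.

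Vesicles of another cell source were compared with PBS in the HEK-EV samples. No gene of the pathway was called, and the differences were small in the main fit. They ran from -0.18 for Timd4 to 0.25 for Gas6 (SE 0.274 and 0.213), with a limma adjusted p of 0.999 for each of the 9. At an unadjusted p under 0.05 there were 0 of the 9, the lowest p being 0.179 for Mfge8, while 495 of all 13820 genes (3.58%) were under it and 0% were called. The groups overlapped for all 9, against 7.81% of all genes with no overlap (5.51% higher and 2.29% lower). The 95% interval was -0.23 to 0.73 for Gas6 and -0.37 to 0.64 for Stab1. The Gas6 difference went to 0.06 without PBS replicate 2 and 0.55 without PBS replicate 1. Those of Mertk, Axl, Stab1 and Dock1 each changed sign on leaving out 1 sample, with ranges of -0.002 to 0.30, -0.11 to 0.20, -0.04 to 0.38 and -0.10 to 0.18. HEK-EV replicates 1 and 3 were far apart for Timd4, at 50.1 and 113 TPM, and the Timd4 difference turned from -0.44 without replicate 3 to 0.15 without replicate 1. Depth as a covariate raised the differences to 0.62 for Gas6, 0.48 for Stab1, 0.39 for Mertk, 0.25 for Dock1 and 0.20 for Pros1. None of these was called.

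MSC-EV against HEK-EV sets both sources of vesicles side by side, and shares the MSC-EV samples with the first comparison. Markers of other cell types differed here too, as given above. Gas6 was higher in MSC-EV by 0.96 (1.97-fold in mean TPM, SE 0.213, limma adjusted p = 0.0348) and Pros1 was lower (difference -0.42, 0.743-fold in mean TPM, SE 0.0851, adjusted p = 0.0279). These 2 of 9 genes, 1 in each direction, stand beside 1.51% of all genes tested called higher and 4.40% called lower (5.91% in all). Stab1 differed by 0.82 (SE 0.225, adjusted p = 0.0633) with no overlap between the groups, and passed in 5 of 23 alternatives, FPKM among them (0.88, adjusted p = 0.0478). The share of all genes called in those 5 ran from 3.63% on FPKM to 15.1% with array quality weights. The Stab1 difference shrank to 0.24 when all 4 samples with acinar transcripts were left out, which left a lone sample in each group. Gas6, Stab1 and Pros1 were the genes whose groups did not overlap, 3 of 9, where 30.1% of all genes tested had none (12.6% higher and 17.5% lower).

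Both calls lay close to the threshold. Gas6 lost its call without any 1 of the HEK-EV or MSC-EV samples, at 0.90 to 1.03 (limma adjusted p = 0.0539 to 0.129). Pros1 lost its call without any of them but MSC-EV replicate 3, at -0.44 to -0.36 (adjusted p = 0.0716 to 0.107). The replicate block also ended the Pros1 call. When low genes were kept, the adjusted p was 0.0878 for Gas6 and 0.0542 for Pros1, and with acinar transcripts as a term, Gas6 stood at 0.96 (adjusted p = 0.0543) and Pros1 at -0.42 (adjusted p = 0.0406). Without the 2 samples richest in them, or all 4 with them, neither passed, with an adjusted p of 0.104 and 0.435 for Gas6 and 0.0661 and 0.288 for Pros1. Timd4 differed by -0.61 (SE 0.274, adjusted p = 0.217), with -0.93 when HEK-EV replicate 1 was left out and -0.35 when replicate 3 was. It passed without all 4 samples with acinar transcripts, which left a lone sample in each group (-1.40, adjusted p = 0.0277). Mfge8 differed by 0.18 (SE 0.107, adjusted p = 0.369), and by 0.05 without HEK-EV replicate 1. Mertk, Axl, Elmo1 and Dock1 differed by 0.18, -0.19, 0.04 and 0.01, with adjusted p from 0.463 to 0.980. Mertk turned to -0.13 without all 4 samples with acinar transcripts and rose to 0.37 with depth as a covariate, which raised Dock1 to 0.17. Leaving out 1 sample moved Mertk between 0.10 and 0.28, Elmo1 between -0.04 and 0.10 and Dock1 between -0.04 and 0.04.

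**Figure D5:**
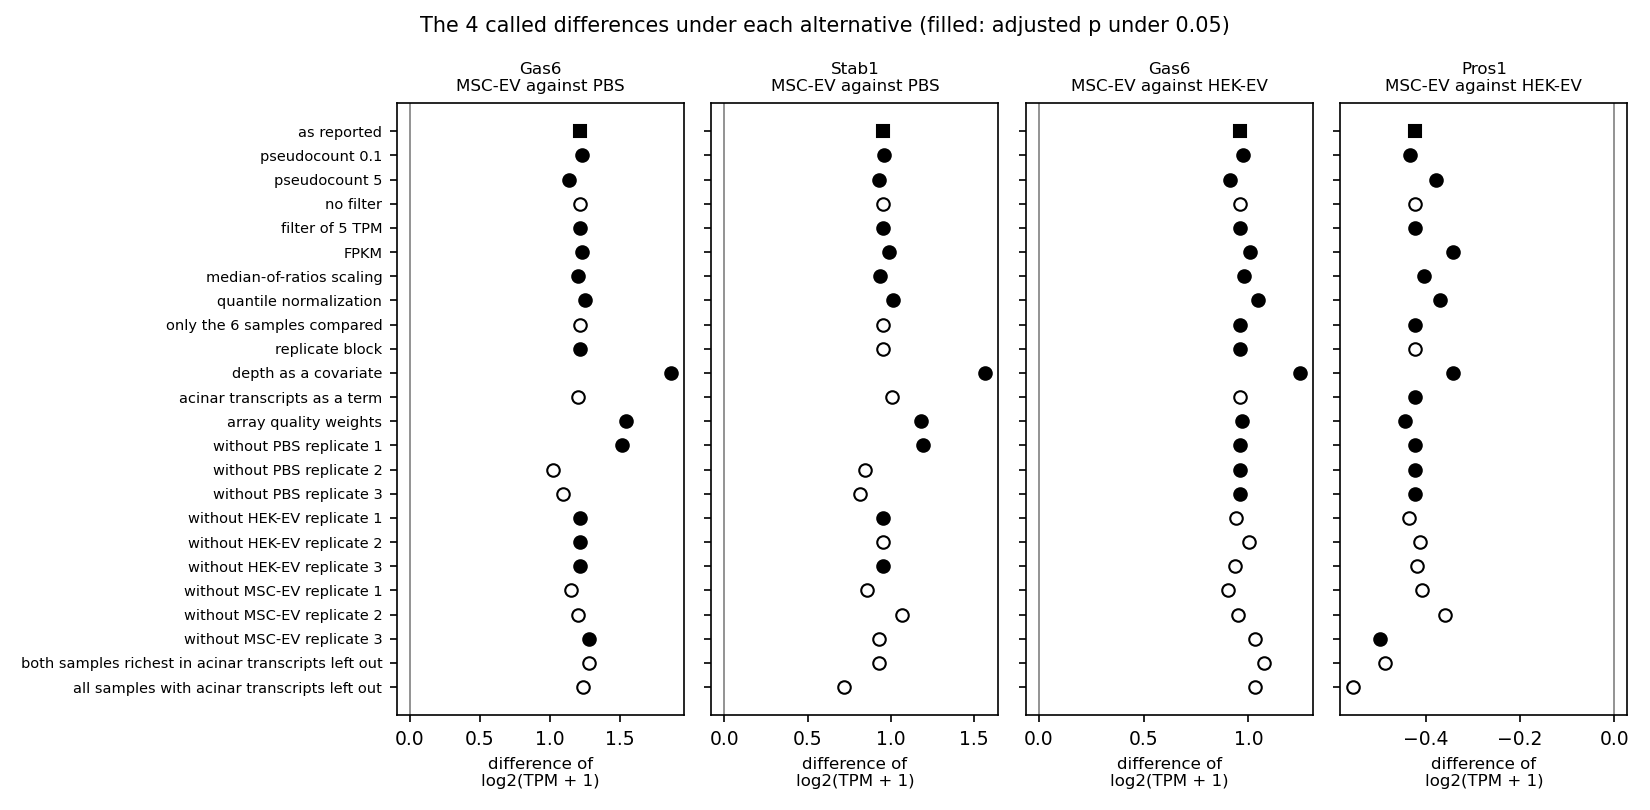
Difference of log2(TPM + 1) for the 4 called differences as reported (squares) and under 23 alternatives (circles), filled where the adjusted p was under 0.05. Each keeps its direction throughout, with Gas6 against PBS between 1.02 and 1.86, while the adjusted p crosses the threshold in many of them.

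The family relatives of the adaptors and receptors showed where the pathway's other members stood. Elmo2, a relative of Elmo1 with the same role, fell from 98.1 ± 6.19 TPM in PBS to 76.1 ± 3.15 TPM in MSC-EV (SD, n = 3), with 95.6 ± 3.43 TPM in HEK-EV (-0.36, SE 0.0621, limma adjusted p = 0.0236). Elmo1 thus made up 44.4% ± 2.21 of the Elmo TPM in MSC-EV, 39.5% ± 2.02 in PBS and 38.3% ± 1.69 in HEK-EV, and Elmo3 was near 1 TPM. Dock5 fell from 24.8 ± 2.25 to 18.7 ± 1.95 TPM (-0.39, SE 0.0943, adjusted p = 0.0483). Dock2, the leukocyte member of the family, was the most abundant at 158 ± 10.05 TPM in PBS and 142 ± 8.07 TPM in MSC-EV (-0.16, SE 0.0678, adjusted p = 0.207). Dock4 was at 20.5 ± 4.29 and 18.4 ± 2.88 TPM, Dock3 was under 1 TPM, and Dock1 made up 8.64% ± 1.19 of the Dock TPM in PBS and 9.98% ± 0.139 in MSC-EV. Of Timd4's relatives, Havcr1 and Timd2 were each under 0.2 TPM in every sample.

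Of 16 engulfment genes tested of 18 listed, Elmo2 and Dock5 were thus called lower and none higher in MSC-EV against PBS, with a median difference of -0.14, where 3.25% of all genes tested were called lower. Against HEK-EV, 3 were called lower, where 4.40% of all genes were, Rac2, a Rac of blood cells, being the third (-0.39, SE 0.0933, limma adjusted p = 0.0433). Rac2 was at 299 ± 44.2 TPM in PBS, 311 ± 5.78 TPM in HEK-EV and 237 ± 4.59 TPM in MSC-EV (SD, n = 3).

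Of 21 other receptors of dying cells, 16 were tested, and 1 was called higher and 2 lower in MSC-EV against PBS (median difference -0.15), where 1.86% of all genes tested were called higher and 3.25% lower. Trem2, a lipid receptor of macrophages, rose from 344 ± 63.2 TPM to 498 ± 34.2 TPM (0.54, SE 0.1198, limma adjusted p = 0.0380). Scarb1, a receptor for high-density lipoprotein that also binds phosphatidylserine, fell from 199 ± 21.0 TPM to 134 ± 13.8 TPM (-0.56, SE 0.0913, adjusted p = 0.0213). Itgb3, an integrin partner for Mfge8, fell from 3.61 ± 0.183 TPM to 2.07 ± 0.270 TPM (-0.59, SE 0.108, adjusted p = 0.0251). Itgb5, the more abundant partner, was at 272 ± 25.1 and 279 ± 21.8 TPM and differed by 0.03 (SE 0.0933, adjusted p = 0.867). Against HEK-EV, with the same MSC-EV samples, Trem2 was called higher and Scarb1 and Itgb3 lower, where 1.51% of all genes tested were called higher and 4.40% lower.

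Of 15 other bridging genes, 11 were tested, and Lgals3, the galectin that links glycans on cells, was the one called in MSC-EV against PBS (median difference 0.10), where 5.11% of all genes tested were called. It rose from 1579 ± 299.6 TPM to 2356 ± 284 TPM (0.59, SE 0.131, limma adjusted p = 0.0390). Against HEK-EV, Lgals3 and Apoh, a plasma protein of the liver, were called higher (0.67 and 1.10, adjusted p = 0.0263 and 0.0411), where 1.51% of all genes tested were. Of the 10 hepatocyte markers, 5 were also called higher there (median 0.81), and their part in the Apoh difference was not tested. The C1q genes, which opsonise dying cells, were far more abundant than the TAM ligands, C1qb being at 1663 ± 209 TPM in PBS and 2094 ± 332 TPM in MSC-EV (0.33, SE 0.136, adjusted p = 0.188).

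None of 10 genes tested that modify, shed or act beside TAM receptors was called in any comparison by limma. At an unadjusted p under 0.05 there were 1, 0 and 1 of the 10 in MSC-EV against PBS, HEK-EV against PBS and MSC-EV against HEK-EV, where 23.0%, 3.58% and 23.3% of all genes were under it. Ggcx, the carboxylase that makes Gas6 and protein S able to bind the lipid, was at 7.58 ± 0.795 TPM in PBS and 8.01 ± 1.08 TPM in MSC-EV. Adam17, which sheds Mertk from the surface, was at 129 ± 10.6 and 122 ± 6.42 TPM (SD, n = 3 each). Of 15 regulators of efferocytosis, Klf2, a transcription factor of quiescent endothelium and myeloid cells, was the one called in MSC-EV against PBS, a count near the 5.11% of all genes. It fell from 135 ± 19.8 TPM to 79.6 ± 5.98 TPM (-0.74, SE 0.114, limma adjusted p = 0.0187) and was also lower than in HEK-EV (-0.58, adjusted p = 0.0267). Of 12 receptors for signals from dying cells and for the restraint of uptake, 1 was called against the same share, Pilra, an inhibitory receptor, which fell from 159 ± 42.1 TPM to 92.8 ± 5.98 TPM (-0.74, SE 0.162, adjusted p = 0.0377), and was lower than in HEK-EV too (-0.95, adjusted p = 0.0216). None of the 80 genes tested in these 6 lists was called in HEK-EV against PBS by limma, and 2 had an unadjusted p under 0.05. The 18 called differences of these 10 related genes, in both comparisons with MSC-EV, kept their direction under the alternatives and passed in 7 to 16 of them. Their sizes moved by over 1.5 times in places. Against PBS, depth as a covariate gave 0.85 for Trem2, -1.23 for Pilra and -0.26 for Dock5. A pseudocount of 5 gave -0.28 for Itgb3 against PBS and -0.27 against HEK-EV. Without all 4 samples with acinar transcripts, Apoh was at 0.51 against HEK-EV.

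The genes most like the called ones over the 9 samples were found by the mean absolute difference of log2(TPM + 1) after centring, among 10251 other genes with a mean of at least 5 TPM. For Gas6 they were Arhgap19, Igf1 and Cd63, at 0.0872, 0.0945 and 0.102, where the median of all genes was 0.510. Igf1, a growth factor, was at mean levels of 58.5, 60.8 and 111 TPM in PBS, HEK-EV and MSC-EV. Cd63, a tetraspanin of late endosomes, was at 152, 160.2 and 334 TPM. For Stab1 they were Myo1e, Vat1 and Pf4, at 0.0818, 0.0910 and 0.111 (median of all genes 0.443), and Pf4, a platelet and macrophage chemokine, was at 167, 163 and 295 TPM. For Pros1 they were Zswim6, Zfp710 and Fam126a, at 0.0432, 0.0483 and 0.0489 (median 0.182). These are likenesses in level over shared samples, and no test was made of them.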

How the data were processed

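The authors deposited 1 gene table per sample, with coverage signal, FPKM and TPM per the file headers. HISAT2 2.1.0, StringTie and build mm10 are named in the submitters' processing notes, with no settings given. RNA was extracted with Trizol and libraries made with a stranded mRNA kit, per the labels' protocols. Gene IDs were matched to RefSeq (GRCm38.p6), which gave a symbol to 45679 of 45777, and 4 to 6 repeated rows per table were summed by ID. Samples were grouped by the treatment in their labels.

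The filter kept 13820 genes that reached 1 TPM in 3 or more of the 9 samples, and these were tested on log2(TPM + 1) with limma 3.58.1 in R 4.3.3 (trend, 9 samples in 1 fit, no covariate, two-sided). The smallest exact permutation p of 3 against 3 is 0.1, so none was computed. Members, gene lists and alternatives were chosen with earlier results of these data known. Named genes were the 10 members, their family relatives, up to 4 genes called per list and comparison, and up to 3 markers by order of the list. For each called member, the 3 genes most like it were named. C1qb, Itgb5, Ggcx, Adam17, Ecm1, Fcgr2b and Flt1 lie outside the rule and were picked with their values known. Alternatives were pseudocounts of 0.1 and 5, no filter or 5 TPM, FPKM, 2 other scalings, the compared samples alone, a replicate block, depth or acinar transcripts as a term, array quality weights and leaving samples out. Figures were drawn with matplotlib 3.10.9 in Python 3.11.15.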

Additional observations from a re-analysis of the deposited data

How the results depend on the processing

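Over 23 alternatives, all chosen with earlier results of these data known and 2 of them added after seeing the data here, the 4 called differences of the 10 genes kept their direction. HEK-EV against PBS had 0 of the genes called in each of them. In MSC-EV against PBS the number called went from 2 to 0 without the filter, with the 6 samples alone, with acinar transcripts as a term and without both samples richest in them. Leaving out all samples with acinar transcripts left a lone MSC-EV and a lone HEK-EV sample, assumed to vary like the rest. The number called went to 6 with array quality weights, where 30.1% of all genes tested were called. In MSC-EV against HEK-EV it went from 2 to 0 without the filter and without both richest samples, and to 1 with the term and without all 4. Leaving out 1 sample gave 0 to 3 genes in each of these comparisons. With the replicate block 1 gene was called in each, Gas6. Same-numbered samples correlated at -0.499 to 0.0580, and 0 of 9 samples were closest to their own number, so the numbers were not taken as pairs. The number of genes tested varied between alternatives, from 10488 with the filter of 5 TPM to 25643 when low genes were kept, so counts are not on the same base throughout. Over all 13820 genes tested in the main fit, the count in MSC-EV against PBS was 706. It was 361 when low genes were kept, 77 with the 6 samples alone, 404 with the block, 1339 with a depth covariate, 21 with the acinar term and 4163 with array weights. Leaving out PBS replicates 1, 2 and 3 in turn gave 1881, 5 and 7, HEK-EV replicate 2 gave 303, and MSC-EV replicates 1, 2 and 3 gave 23, 54 and 461, and the added alternatives gave 0 and 50. In MSC-EV against HEK-EV the count was 817, with 387 when low genes were kept, 448 with the block, 1449 with a depth covariate and 2081 with array weights. It was 436 on FPKM and 498 with median-of-ratios scaling. Leaving out PBS replicate 1 gave 1384, HEK-EV replicates 1, 2 and 3 gave 1, 0 and 31, and MSC-EV replicates 1 and 2 gave 0 each, and the added alternatives 0 and 69. HEK-EV against PBS had 0 to 4 genes, the 4 with low genes kept. The percentage called higher against PBS was 36.4, with 54.6 when low genes were kept, 45.6 with median-of-ratios scaling, 44.5 with quantile normalization and 58.7 on FPKM. Against HEK-EV it was 25.6, with 43.8, 45.5 and 54.8 under the last 3 of these and 38.0 with low genes kept. The causes were not tested. No counting error can be given without read counts.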
